A study of Rattus norvegicus with 415 samples.

Results

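The gene ENSRNOG00000002468 was nearly silent in most adipose samples of outbred rats and clearly expressed in the others, and these 2 modes were compared here. The members were chosen by the measured level of this gene: a sample was called off when the deposited FPKM of this gene was below 1.5, and on when it was 1.5 or above. FPKM counts the reads of a gene relative to its length and to the depth of the library. Of all samples in the series, 77.8% were off and 92 (22.2%) were on. The values of the gene itself chose the 2 groups, so they are described without a test.

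The samples were adipose tissue of Rattus norvegicus aged 17 weeks, from a study that mapped metabolic traits and expression to the genome in outbred rats. The labels gave every sample the same tissue and age, with no treatment, genotype or sex, so on and off are not groups of the study. Each title held a number and a suffix whose meaning the labels do not give. The title numbers formed 3 blocks separated by gaps above 500, which served as possible batches. Whether samples with the same number came from separate animals is not given in the labels, so the p-values measure the spread between these samples. Unless said otherwise, the comparisons of other genes took each sample as independent. Samples with the same number had an estimated correlation of 0.209 after mode and block, so these p-values can be too small.

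Outbred stocks of this kind descend from several crossed inbred strains, and animals differ at many positions of the genome. A variant close to a gene that changes its own expression is called a cis expression variant, and one that silences a gene can split the animals of such a stock into expressing and non-expressing sets. Genotypes and gene positions were not analysed here. The files give genes by Ensembl identifier only. The reference table of gene names matched 0 of the 18358 identifiers, so neither ENSRNOG00000002468 nor any other gene is named here, no function is given, and no sequence is printed. For the same reason the tissue label was not checked against adipocyte markers, and no list of pathway or cell type genes was read. In bulk tissue, fewer cells of a type and less RNA per cell cannot be told apart.

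ENSRNOG00000002468, with a counted length of 7001 bp, had a median of 0.146 FPKM in the off samples, with values from 0 to 1.33. These off levels were a median of 5 reads, with a highest count of 43. No read of the gene was counted in 12 off samples, or 3.72% of them. The on samples had a lowest value of 1.603 FPKM, a median of 9.89 and a highest value of 36.6. On levels rested on a median of 324.5 reads, with a lowest count of 41. The median of the on samples was 67.6 times that of the off samples, and the on samples held 94.3% of all reads of the gene. By construction of the cut the groups did not overlap.

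Few samples lay near the cut. The off samples nearest to it had 1.33, 1.18, 0.918 and 0.912 FPKM, and the next had 0.681. The on samples nearest to it had 1.603, 1.95, 2.03, 2.18 and 2.24 FPKM. In all, 310 samples were below 0.5 FPKM, 9 from 0.5 to under 0.75, 13 from 0.75 to under 5, and 83 at 5 or above. Of the 13 samples between the modes, 9 were on and 4 were off. The gap was therefore thinly filled rather than empty.

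**Figure D1:**
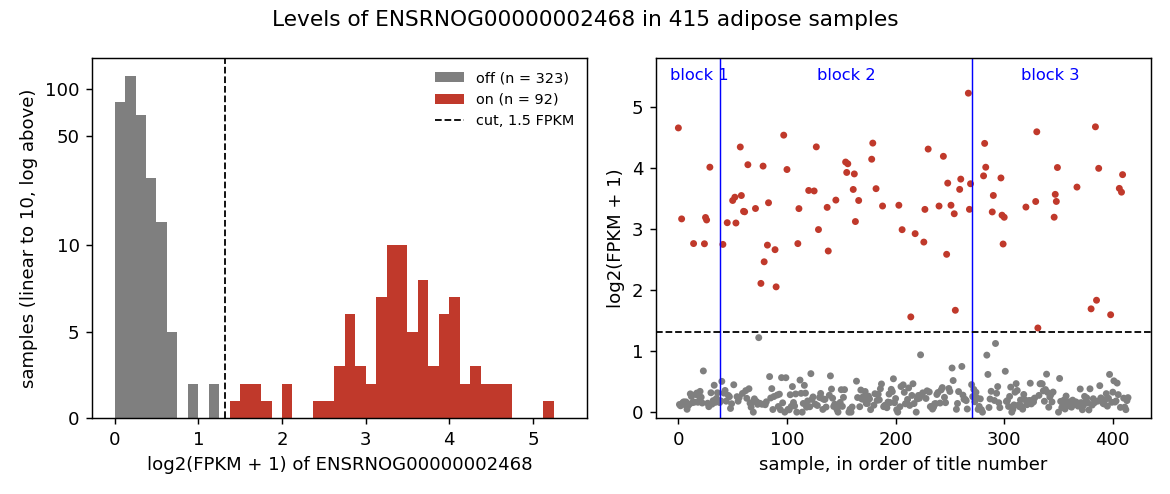
Levels of ENSRNOG00000002468 as log2(FPKM + 1). Left, the number of samples per level (vertical axis linear to 10 and logarithmic above), with off samples in grey, on samples in red and the cut at 1.5 FPKM dashed. Right, each sample as a point in the order of title numbers, with blue lines between the blocks. The on samples spread from 1.603 to 36.6 FPKM and stand in all 3 blocks.

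Within the on samples the level was broad. The middle 50% ran from 7.61 to 13.9 FPKM, the 10th percentile was 5.04 and the 90th 18.7. The highest sample, at 36.6 FPKM, was 1.48 times the next, at 24.6. On the log2(FPKM + 1) scale the SD of the on samples was 0.74 around a mean of 3.40. A second component within the on samples was not clearly better than 1: the Bayesian information criterion fell by 0.864, and the smaller component held 10.02% of the on samples. Over all samples, 2 components lowered the criterion by 695. The gene was chosen for its on and off levels, so this value describes that choice and does not test it. The on mean was 10.7 ± 6.78 FPKM (SD, n = 7) in block 1, 10.9 ± 5.79 (n = 59) in block 2 and 11.1 ± 5.90 (n = 26) in block 3. These block means differed by far less than the SD within a block.

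The modes were found along the whole numbering. Block 1, with title numbers from 57215 to 59114, held 7 on samples (17.9% of its samples). Block 2, from 60213 to 63056, held 59 (25.4%), and block 3, from 63906 to 64305, held 26 (18.1%). These shares were not shown to differ (permutation test of chi-square, p = 0.201). Among the 4 suffixes that stood on at least 10 samples, the share of on samples was 20% for suffix 3, 21.9% for suffix 4, 25.7% for suffix 5 and 37.5% for suffix 6, the last with 9 of 24 samples on. These shares were not shown to differ either (permutation test of chi-square, p = 0.264).

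Sequencing depth was not shown to differ between the 2 modes. The on samples had 2538904 to 5898895 reads in genes with a median of 4648228, and the off samples 2139163 to 6248214 with a median of 4586120. Mean log2 reads were higher by 0.0069 in the on samples (two-sided permutation p = 0.758), against an SD of 0.19 over all samples. Fewer than 3500000 reads were found in 3 on and 9 off samples. Within the on samples the level of the gene was not shown to be related to log2 reads (Pearson's r = -0.0971 with permutation p = 0.357, Spearman's rho = -0.197 with permutation p = 0.0594). Without the 2 samples of most extreme depth, r was -0.197. Within blocks 1, 2 and 3 the on samples gave r of -0.253, -0.131 and -0.00055 (permutation p = 0.582, 0.318 and 0.998) and rho of -0.393, -0.300 and -0.171 (permutation p = 0.397, 0.0208 and 0.403). Without the 2 samples of most extreme depth in each block, r was 0.2145, -0.315 and -0.302. Of the 8 relations of level to reads examined, none had an adjusted p below 0.166.

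Samples with the same title number tended to share the mode. The cut did not use the number. Of the samples that shared one, 48 were on. Both samples were on in 19 pairs (18.1%), 1 was on in 19, and both were off in 67 (63.8%). The partners of on samples were on in 66.7% of cases (38 of 57), and the partners of off samples in 12.4%. The number of pairs with both samples on was larger than in any shuffle of the modes over these samples (one-sided permutation p = 1e-05, the smallest the permutations can give). The excess was found within block 2 (12 of 49 pairs, p = 0.00063) and block 3 (6 of 47 pairs, p = 0.00221). Block 1 had 1 such pair of 9 (p = 0.175).

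Neighbouring numbers are given for comparison, without a test. Between samples that followed each other in the numbering without sharing a number, both were on in 17 pairs, and the neighbours of on samples were on in 25.8% of cases. All samples were on in 22.2% of cases. Of the title numbers, 74 (23.3%) had at least 1 on sample.

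**Figure D2:**
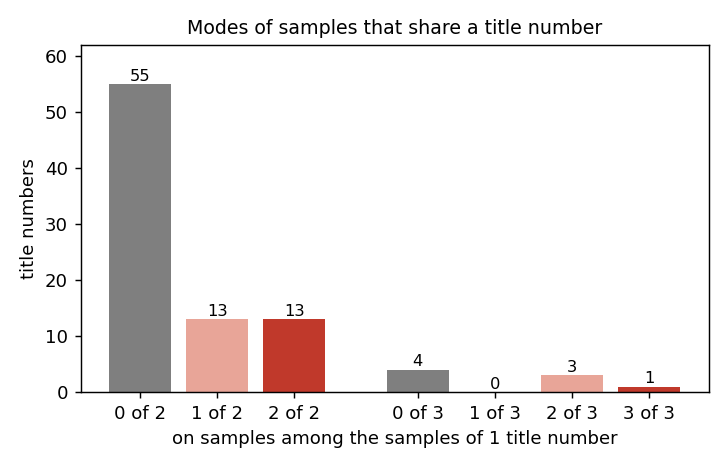
Title numbers that stood on 2 samples (left bars) or 3 samples (right bars), by how many of these samples were on. The vertical axis counts title numbers. Among numbers on 2 samples, 55 had both off, 13 had 1 on and 13 had both on. Among numbers on 3 samples, 4 had all off, 3 had 2 on, 1 had all on and 0 had 1 on.

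Very few other genes followed the modes. The comparison asked which genes differ between on and off samples once the block is taken into account, and used limma on log2(FPKM + 1) over 16130 genes. Of these, 8 differed at a Benjamini-Hochberg adjusted p under 0.05, which is 0.0496% of the genes tested. Higher in the on samples were 6 genes (0.0372%), and lower were 2 (0.0124%). An unadjusted p under 0.05 was found for 1230 genes, or 7.63%. The median absolute difference over all genes was 0.02 on the log2 scale, and the 95th percentile was 0.12.

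Size was judged by the standardized difference, the log2 difference divided by the SD between samples within mode and block. Among the 8 genes, 1 reached 1 SD and 0 reached 2 SDs. The 8 genes had shifted but broadly overlapping values. With 1 sample per title number 5 genes passed, 4 of them among the 8, and with log2 reads or 5 principal components as covariates 28 and 37 passed, with all 8 among them. Identifiers are given for the 2 with the largest standardized rise and the 2 that fell.

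**Figure D3:**
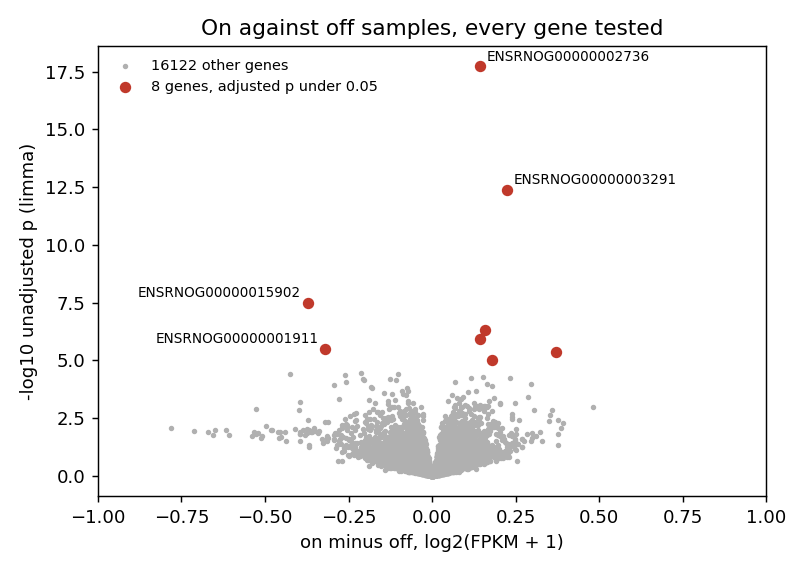
On minus off difference on the log2(FPKM + 1) scale (horizontal axis) against the negative log10 of the unadjusted limma p (vertical axis), 1 point per gene tested. The 8 genes past the threshold are red, and the 4 given by identifier are labelled. The widest differences, at the far left, are not among the 8.

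ENSRNOG00000002736 stood first. Its off samples ranged from 20.4 to 39.2 FPKM with a median of 24.4, and its on samples from 14.7 to 37.1 with a median of 27.4. The ranges overlapped widely, and 92.4% of on samples lay above the off median and 25% above the 95th percentile of the off samples. The mean was 27.5 ± 2.80 FPKM in on (SD, n = 92) and 24.8 ± 2.40 in off over the off samples, a rise of 10.98%. On the log2 scale the difference was 0.14 (SE 0.015, limma adjusted p = 3.056e-14), or 1.09 SD. The mode accounted for 17.1% of the variance left by the blocks. The gene had 436 reads per sample on average.

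The on mean of ENSRNOG00000002736 was the higher one in each block. Means in block 1 were 29.5 ± 1.95 FPKM (n = 7) in on and 25.95 ± 1.77 (n = 32) in off. In block 2 they were 27.7 ± 2.57 (n = 59) in on and 24.8 ± 2.70 in off. In block 3 they were 26.6 ± 3.20 (n = 26) in on and 24.4 ± 1.93 in off. The log2 difference was 0.18 (SE 0.043), 0.15 (SE 0.021) and 0.11 (SE 0.028) in blocks 1, 2 and 3. With limma within a single block, it passed the adjusted threshold in block 2 (adjusted p = 6.081e-08) but not in block 1 (adjusted p = 0.491) or block 3 (adjusted p = 0.159).

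ENSRNOG00000003291 came second, with 20.8 to 57.1 FPKM and a median of 31.3 in the off samples, and 18.8 to 63.6 with a median of 38.4 in the on samples. Of the on samples, 85.9% lay above the off median and 16.3% above the off 95th percentile. The mean was 37.9 ± 7.34 FPKM in on and 32.1 ± 6.01 in off, higher by 18.1% (log2 difference 0.22, SE 0.030, limma adjusted p = 3.367e-09, 0.89 SD). The log2 difference was 0.09 (SE 0.12) in block 1, 0.25 (SE 0.040) in block 2 and 0.21 (SE 0.046) in block 3. All 3 differences were upward, and that of block 1, with 7 on samples, was smaller than its SE.

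ENSRNOG00000015902 was lower in the on samples. Its off samples ran from 5.10 to 72.6 FPKM with a median of 31.8, and its on samples from 6.22 to 53.4 with a median of 25.97. Below the off median lay 70.7% of on samples, and below the off 5th percentile 19.6%. The on mean was 25.6 ± 11.4 FPKM against 31.7 ± 10.52 in off (log2 difference -0.37, SE 0.066, limma adjusted p = 0.000182, -0.67 SD). The difference was -0.02 (SE 0.23) in block 1, -0.32 (SE 0.088) in block 2 and -0.57 (SE 0.11) in block 3.

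ENSRNOG00000001911 was also lower, with a median of 7.46 FPKM in off (1.37 to 22.03) and 5.81 in on (1.07 to 17.8). Its means were 6.16 ± 2.91 FPKM in on and 7.77 ± 3.24 in off (log2 difference -0.32, SE 0.068, limma adjusted p = 0.00897, -0.56 SD). It did not hold in block 1, where the difference was 0.30 in the other direction (SE 0.21), against -0.33 (SE 0.091) in block 2 and -0.46 (SE 0.11) in block 3. It rested on 45.6 reads per sample, fewer than the 3 genes above.

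**Figure D4:**
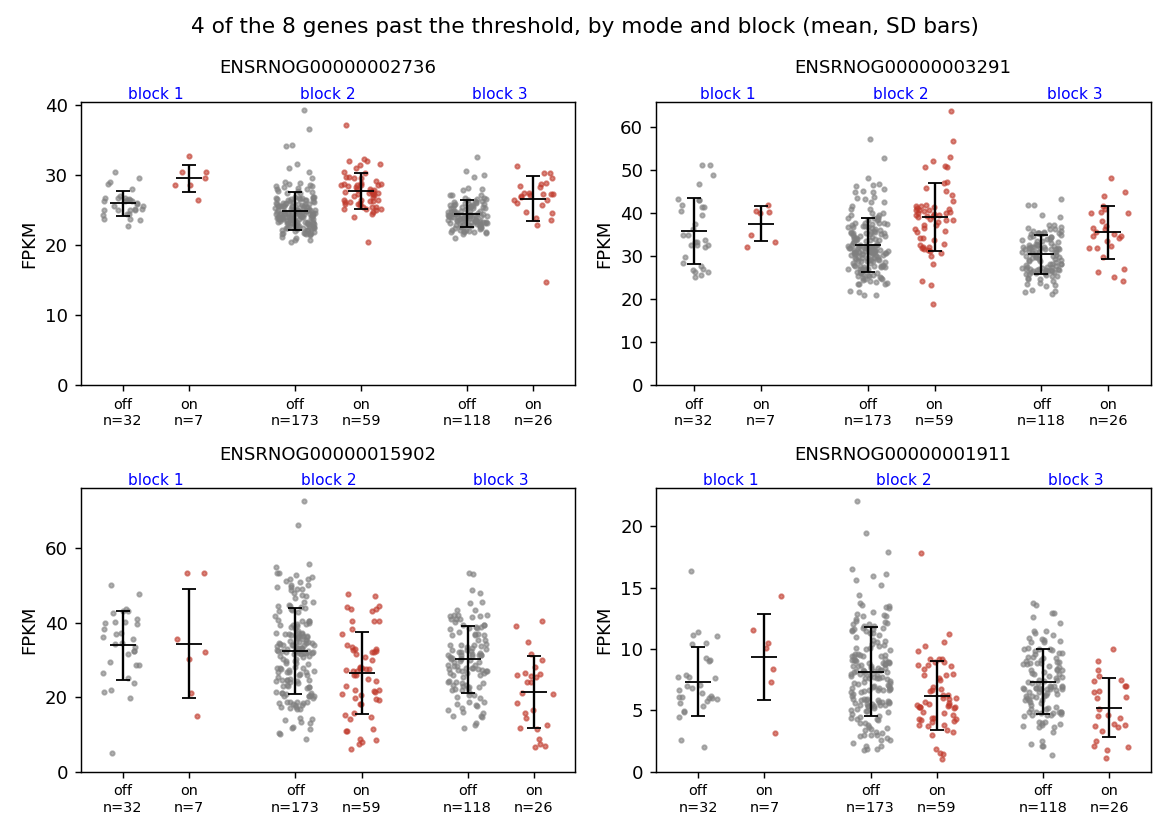
FPKM of ENSRNOG00000002736, ENSRNOG00000003291, ENSRNOG00000015902 and ENSRNOG00000001911 by block and mode. Points are samples (off grey, on red), and the bars give the mean and SD. In every panel and block the 2 modes overlap. The means of the first 2 genes are higher in on in each block, while those of the 2 lower genes are lower in on in blocks 2 and 3 but not in block 1.

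The remaining 4 genes were all higher in the on samples. Their log2 differences ran from 0.14 to 0.37, their standardized differences from 0.53 to 0.61, and their limma adjusted p-values from 0.00189 to 0.0196. They had 53.5 to 331.8 reads per sample. With the title number as a random effect, 1 of these 4 lost the call (limma adjusted p = 0.1225). With 1 sample per title number, 3 of the 4 lost it (limma adjusted p = 0.0960, 0.0973 and 0.375), and so did ENSRNOG00000001911 (limma adjusted p = 0.0960). Over all 8 genes the mode accounted for 4.65% to 17.1% of the variance left by the blocks.

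The 8 genes did not form a single correlated set. After removal of mode and block, Pearson's r over the 28 pairs of these genes had a median of 0.00873, a lowest value of -0.256 and a highest value of 0.387. Only 1 pair exceeded 0.3 in size, and it joined ENSRNOG00000002736 to 1 of the 4 remaining genes. These coefficients are over all samples, which share depth and scaling, and are given as a description. By the same 2-component description that separated ENSRNOG00000002468, chosen for its separated levels, by 9.30 SDs, none of the 8 genes was separated by more than 3.74 SDs. The Bayesian information criterion still fell with 2 components for some of them. It fell by 100.3 for 1 of the 4 remaining genes, 45.5 for ENSRNOG00000015902, 12.3 for ENSRNOG00000001911 and 6.95 for ENSRNOG00000002736. For the rest of the 8 genes 1 component was the better fit.

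Whether the difference varied with the block was tested by the interaction of mode and block. With limma, 0 of 16130 genes had an adjusted p under 0.05 and 797 had an unadjusted p under 0.05; the lowest adjusted p was 0.266. No other tool was run for the interaction. For ENSRNOG00000001911, whose block 1 value had the opposite sign, the unadjusted interaction p was 0.0191 (limma adjusted p = 0.948). With 7 on samples in block 1, such a difference could be measured only coarsely.

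The samples between the modes give a further description. The 9 on samples below 5 FPKM of ENSRNOG00000002468 had a median of 25.7 FPKM of ENSRNOG00000002736, between the medians of the other on samples (27.4) and of the off samples below 0.75 FPKM (24.4). The 4 off samples at 0.75 FPKM or above had a median of 24.7 FPKM. For ENSRNOG00000003291 the same 9 on samples had a median of 34.2 FPKM, against 39.01 in the other on samples and 31.5 in the off samples below 0.75 FPKM. The 4 off samples at 0.75 FPKM or above had a median of 25.5 FPKM of ENSRNOG00000003291, which was lower than in the other off samples. The lowest on value of ENSRNOG00000002736, 14.7 FPKM, belonged to 1 of these 9 samples, in block 3, with 2.24 FPKM of ENSRNOG00000002468.

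The 5 genes whose levels were most like those of ENSRNOG00000002468 over all samples, by the size of Pearson's r on the log2 scale, included 3 of the 4 genes given above. The coefficients were 0.445 for ENSRNOG00000002736, 0.355 for ENSRNOG00000003291 and -0.292 for ENSRNOG00000015902. The other 2 had 0.229 and 0.228. These are a description over samples that share depth and scaling. The same values set the modes, so an overlap with the genes called between the modes is built in. Spearman's rho was 0.413, 0.295 and -0.160 for the 3 genes, so the third relation was weaker by rank.

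**Figure D5:**
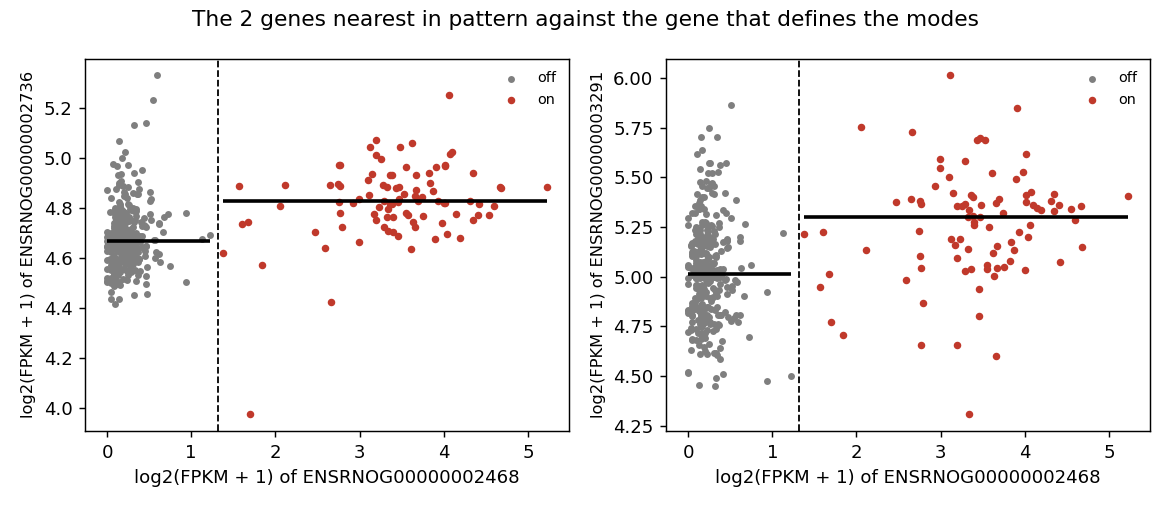
Level of ENSRNOG00000002736 (left) and ENSRNOG00000003291 (right) against that of ENSRNOG00000002468, all as log2(FPKM + 1), 1 point per sample. Off samples are grey and on samples red, the dashed line is the cut, and the horizontal lines are the medians of each mode. The shift between the modes is seen in both panels, with wide overlap, and the on samples nearest to the cut lie lower on average than the others.

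The level within a mode was not used by the cut, and its relation to other genes was tested separately. Within the 92 on samples, 2.18% of the 16130 genes changed with the level of ENSRNOG00000002468 (limma slope with block as covariate, adjusted p under 0.05), 1.12% upward and 1.06% downward. The median absolute slope of these genes was 0.13 log2 units per log2 unit, and the slopes ran from -0.49 to 0.68. None of the 8 genes that differed between the modes was among them, although 1 of the 8 was called with log2 reads as a further covariate. The slope of ENSRNOG00000002736 was 0.065 (SE 0.020, limma adjusted p = 0.0658). Those of ENSRNOG00000003291 and ENSRNOG00000015902 were 0.069 (SE 0.038, limma adjusted p = 0.402) and -0.27 (SE 0.093, limma adjusted p = 0.119).

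That share was lower without the 9 on samples below 5 FPKM. Among the 83 on samples at 5 FPKM or above, 37 of 16130 genes changed with the level, 32 of them among those found in all on samples. An unadjusted limma p under 0.05 was found for 1986 genes there, against 2426 in all on samples. Fewer samples and a narrower range of levels were fitted there, and the reason for the lower count was not tested. Within the off samples, where the level was a few reads per sample, 86 genes changed (0.533%), 38 upward (0.236%) and 48 downward (0.298%). Of these 86 genes, 11 also changed with the level in the on samples, where 2.18% of all genes tested did. All 11 had slopes of opposite sign in the 2 modes. How often the signs differ over all genes was not counted, and neither the overlap nor the signs were tested. The median absolute standardized difference between the modes was 0.115 for the genes that followed the level in the on samples and 0.084 for all genes. The share of them with an unadjusted p under 0.05 between the modes was 18.5%, against 7.63% of all genes. The same on samples entered both comparisons, and genes that move together are not separate measurements. These values are therefore a description, and their difference was not tested.

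The widest differences between the modes did not pass the test. The absolute log2 difference exceeded 0.5 in 14 genes, all lower in the on samples, and 0 of the 14 passed the threshold (limma adjusted p from 0.240 to 0.554). All 14 had an unadjusted p under 0.05. The widest had a mean of 17.7 FPKM in on and 36.5 in off (log2 difference -0.78, unadjusted limma p = 0.00873). The SD of these genes between samples was 1.37 to 2.50 on the log2 scale, so the differences were 0.27 to 0.38 of an SD in size. Their levels moved together, with a median r of 0.944 over all samples. The 14 differences are thus not 14 independent measurements.

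ENSRNOG00000012067, a gene chosen because earlier results showed its levels to be widely separated, was not shown to follow the modes. Its median was 61.9 FPKM in on (2.25 to 132.8) and 54.7 in off (1.98 to 118.7). The log2 difference was 0.25 (SE 0.21, limma adjusted p = 0.882), and 56.5% of on samples lay above the off median.

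Pairs of samples with the same title number and different modes allowed a comparison with the number held fixed. Of the 19 such pairs, 13 came from numbers on 2 samples. The others came from 3 numbers on 3 samples, where 1 off sample stood in 2 pairs, so the 19 pairs are not all separate. The on sample had the higher level of ENSRNOG00000002736 in 14 pairs and of ENSRNOG00000003291 in 12. It had the lower level of ENSRNOG00000015902 in 14. For ENSRNOG00000001911 it was lower in 10 of 19. With the title number as a fixed factor in the samples that share one, limma called 0 of 16130 genes, and 457 had an unadjusted p under 0.05. The differences were then 0.079 (SE 0.039) for ENSRNOG00000002736, 0.16 (SE 0.076) for ENSRNOG00000003291, -0.17 (SE 0.16) for ENSRNOG00000015902 and -0.031 (SE 0.16) for ENSRNOG00000001911. The first was 1.80 times smaller than over all samples, the second 1.36 times, the third 2.22 times and the last 10.3 times. Only samples that share a number were fitted, so both the model and the samples differ from the main comparison. The SEs of these 4 genes were 2.33 to 2.55 times those over all samples.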

How the data were processed

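RNA from adipose samples was sequenced as 75 bp single-end reads, per the labels' protocols. STAR, Picard, featureCounts and DESeq2 stand in the submitters' processing notes without versions or roles. The genome build and annotation are not given in the sources used here. The authors deposited FPKM values for 18358 genes, already scaled between samples. Whole reads were recovered from them within a tolerance of 0.001 for 100% of values. Reads per sample were 2139163 to 6248214, and that depth limits the low genes, the off level above all.

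Genes above 1 FPKM in at least 20% of samples were kept, which left 16130 besides ENSRNOG00000002468. Modes were compared with limma 3.58.1 in R 4.3.3 on log2(FPKM + 1), a scale that understates the change of low genes, with block as covariate and Benjamini-Hochberg adjustment. Shares, same-number pairs and depths were tested with 100000 permutations each in Python 3.11.15 with numpy 2.4.6 and scipy 1.17.1. Components were fitted with scikit-learn 1.9.0. The gene, the cut, the lists and the tests were chosen with earlier results of these data known. Because identifiers had no names, the named genes are the 2 risers and the 2 fallers with the largest standardized difference, a choice between parts of the naming rule made after values were seen. ENSRNOG00000012067 was fixed by name. Planned lists of marker and pathway genes could not be read. Alternatives are given in the closing section.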

Additional observations from a re-analysis of the deposited data

Results flagged for a closer look

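In block 1, which had 7 on samples, 1 of the 4 higher genes not given by identifier had a highest value of 19.98 FPKM that stood apart from the other 6 by more than Dixon's 95% limit. It was the only one of the 10 genes checked in that set, and chance flags about 1 set in 20.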

How the results depend on the processing

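The labels put all samples in 1 group, so on and off samples could be paired only through a shared title number. The count of 8 genes between on and off stayed within 1.5 times under 12 of 22 alternatives, although with the cut at 3 or 6 FPKM only 6 and 4 of the 8 were among the 9 and 6 genes. It was 18 with the cut at 0.75 FPKM, 14 with voom on recovered reads, 25 without samples under 3500000 reads, 28 with log2 reads and 37 with 5 principal components as covariates, each time with all 8 genes included. It was 5 with 1 sample per title number, 4 of them among the 8. Within blocks 1, 2 and 3 it was 1, 2 and 1, where fewer samples were tested, and 0, 2 and 1 of these were among the 8. It was 0 with the title number as a fixed factor. ENSRNOG00000002736, ENSRNOG00000003291 and ENSRNOG00000015902 stayed past the threshold in 19 of 22 alternatives each. The adjusted p of ENSRNOG00000002736 ran from 3.746e-19 to 0.99997 over them. The cause of these changes was not tested. The count of genes that passed the adjusted threshold and reached 1 SD was 1. It became 2 with 5 principal components and 0 with the title number as a fixed factor. Within each single block it was also 1, but the gene was not the same. In block 1 it was a gene outside the 8, lower in the on samples and past 2 SDs. In block 2 it was ENSRNOG00000002736 (1.11 SD) and in block 3 ENSRNOG00000015902 (-1.13 SD). Over all samples, limits of 0.5 and 2 SDs gave 8 and 0. The genes that followed the level within on samples were 570 with log2 reads as covariate (3.53% against 2.18% of genes, with 99.7% of the latter included) and 37 at 5 FPKM and above. Same-number pairs with both samples on fell to 1 within block 1, with 9 pairs. The difference in log2 reads changed sign within block 1 (-0.0214) and block 3 (-0.0166). ENSRNOG00000001911 turned to 0.30 within block 1. ENSRNOG00000012067, which did not pass, turned to -0.14 within block 1 and to -0.19 with the title number as a fixed factor. Of the values of the 8 genes under alternatives, 77.1% kept direction and call, 39 (22.3%) lost the call and 1 changed sign. Leaving out the samples between the modes and the fixed factor, and the slope at 5 FPKM and above, were chosen after the data were seen. The off level, at a median of 5 reads, is limited by depth.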
